A study of Homo sapiens with 76 samples.

Results

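The 38 cells described here are the 19 HEK293 cells with the highest and the 19 with the lowest share of MALAT1 RNA among 76 single cells. HEK293 is an established human embryonic kidney line. All cells were grown untreated in DMEM with glutamine and 10% fetal calf serum, so the cells form 1 group and the high and low cells were chosen by a measured value, MALAT1 UMIs as a percent of all gene UMIs of the cell. A UMI (unique molecular identifier) is a random tag that lets copies of 1 cDNA molecule be counted once. Each cell was caught in 1 of the 96 chambers of a Fluidigm C1 chip, and 20000 ERCC spike-in molecules went into its lysis mix, per the protocol. Then the 5′ ends of oligo-dT primed cDNA were sequenced. The labels name no replicate cultures, so cells are units of observation here, no test between the ends was made, and every ± is an SD over 19 cells.

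MALAT1 is a long, abundant non-coding RNA that stays in the nucleus, where it gathers at nuclear speckles, the bodies that hold splicing factors near active genes. It leaves its gene locus without being exported, and its 3′ end is protected by a triple helix in place of an ordinary poly(A) tail. In droplet and plate-based single-cell work its share is often read as a mark of how much of a cell's RNA came from the nucleus. For that reason transcripts that stay in the nucleus and transcripts of the cytoplasm and mitochondria are set side by side below.

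Because the assay counts 5′ ends, the ends of MALAT1 that it could have tagged are shown first. RefSeq lists 2 starts for the gene on the plus strand of chromosome 11 in GRCh38.p14, at chr11:65497738-65497787 and chr11:65499045-65499094. The first 50 bases of each transcript, as DNA of the reference, are:
MALAT1 upstream start: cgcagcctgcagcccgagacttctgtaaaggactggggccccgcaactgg
MALAT1 downstream start: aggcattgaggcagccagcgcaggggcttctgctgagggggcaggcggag
The deposited counts are 1 value per gene and cell, so the start behind a UMI cannot be told from them.

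The MALAT1 values chose the cells and are given as a description only. In the 19 high cells MALAT1 took from 0.257% to 0.693% of gene UMIs, with a median of 0.327% and a mean of 0.359% ± 0.118. In the 19 low cells it took from 0% to 0.0519%, with a median of 0.0310% and a mean of 0.0291% ± 0.0152. These shares stand for 31 to 115 MALAT1 UMIs in a high cell (median 66) and 0 to 19 in a low cell (median 6). The order has no gap at either limit: the last high cell had 0.257% (38 UMIs) and the next cell 0.251% (70 UMIs). At the other end the first low cell had 0.0519% (19 UMIs) and the cell above it 0.0561% (16 UMIs). The 2 highest cells stood apart from the other high cells in the plot of MALAT1 by rank.

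**Figure D1:**
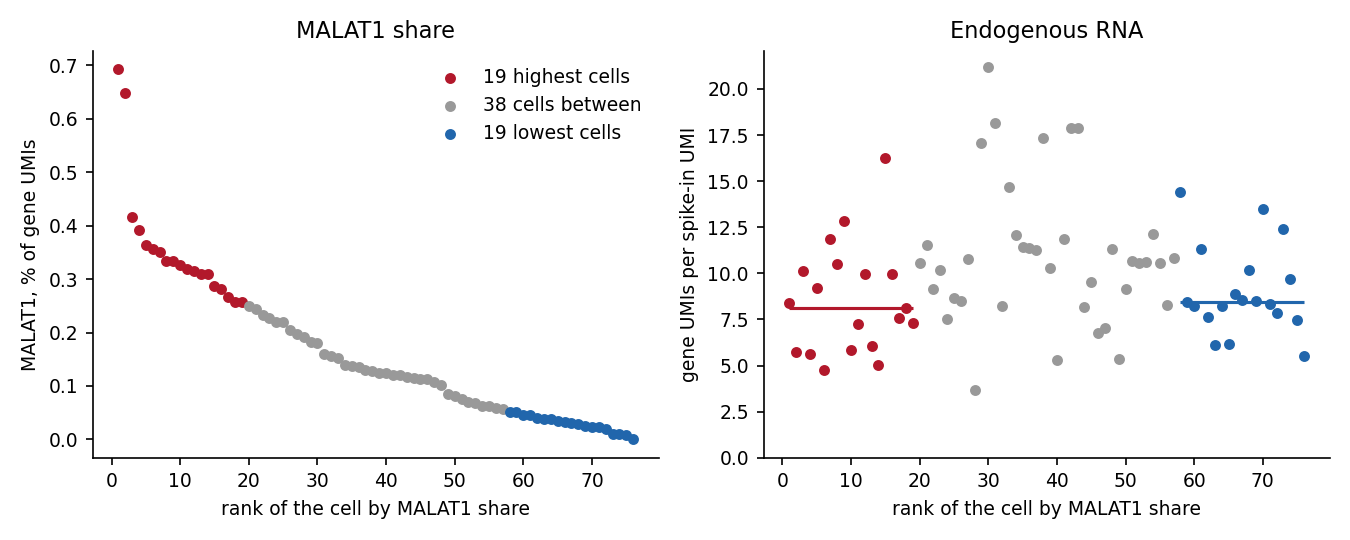
Left, MALAT1 as a percent of gene UMIs against the cell's rank; right, gene UMIs per spike-in UMI against the same rank, with a line at the median of each end. MALAT1 runs from 0.693% to 0% without a break at the limits of the 19 high cells (red) and 19 low cells (blue), and the medians on the right are 8.13 and 8.44.

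The ends overlapped widely in the amount of RNA counted, with lower medians in high cells. High cells gave 10011 to 38928 gene UMIs (median 16470) and low cells 8272 to 36606 (median 20223), and the ranges overlapped over most of their length. Spike-in UMIs were 1750 to 2764 (median 2085) in high cells and 1493 to 3020 (median 2323) in low cells. In gene UMIs 12 of 19 high cells, and in spike-in UMIs 14 of 19, lay below the median of low cells. Gene UMIs per spike-in UMI, a measure of a cell's RNA content, were 4.77 to 16.3 (median 8.13) in high cells and 5.54 to 14.4 (median 8.44) in low cells. The ratio of the means of this measure was 0.947 (8.55 ± 2.98 against 9.03 ± 2.41), with 11 of 19 high cells below the median of low cells. Cells between the ends had more: the next 19 cells below the high end averaged 11.8 and the 19 above the low end 10.2 gene UMIs per spike-in UMI. Both ends of the order thus averaged less RNA per spike-in UMI than the middle. MALAT1 UMIs per spike-in UMI were 11.2 times higher in high than in low cells.

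Ranking by MALAT1 per spike-in UMI kept 11 of the 19 high cells and 17 of the 19 low cells. With those ends gene UMIs per spike-in UMI were 1.46 times higher in the high cells. That ranking and this measure share the spike-in divisor, and how much of the higher value this gives was not tested. At an equal depth of 10000 UMIs, which 18 cells of each end reached, a high cell had 2456 to 3414 genes (median 2654) and a low cell 2312 to 3150 (median 2660). Without thinning the medians were 3383 and 3809 genes. Of 5 cells with fewer than 10483 gene UMIs, the median divided by 2, 1 was a high cell and 1 a low cell. The cell's number in its label and the MALAT1 share had a Pearson r of -0.125 over 76 cells, which reads a straight trend only. The median number was 38 in high cells and 53 in low cells, and 13 of 19 high cells lay below the median of low cells. Whether the ends cluster by number was not tested.

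Of 1095 other genes with a mean of at least 3 UMIs per cell, 113 (10.3%) had a mean share at least 1.5 times higher in high cells and 127 (11.6%) a mean share at least 1.5 times lower. These are here called past the fold. All shares leave MALAT1 out of the cell's total. The median ratio over all 1095 genes was 1.01, and the groups overlapped for every one of them. A 2-fold limit was passed by 25 genes upward and 30 downward. The exact 95% interval of the ratio of summed UMIs, which covers counting error only, lay above 1 for 103 of the 113 and below 1 for 111 of the 127. Leaving out a single cell ended the call for 42 genes of the first group and 43 of the second.

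How often a gene passed depended on its abundance. The share past the fold in either direction was 28% among 450 genes with means of 3 to 5 UMIs, 23.2% among 332 genes of 5 to 10, and 11.3% and 12.6% in the 2 classes above. Spike-in RNAs, put through the same comparison on the spike-in total, show technical spread only. Of the 24 with a mean of at least 3 UMIs 0 passed, with ratios from 0.748 to 1.23, but just 3 had means of 3 to 5 UMIs and 4 of 5 to 10, the classes where genes passed most often. On the scale of spike-in UMIs in place of the cell's own total, 73 genes were higher and 135 lower, so the balance of the directions depended on the scale.

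Of the 119 genes with means of at least 30 UMIs, 11 were lower in high cells, and all 11 are encoded by the mitochondrial genome. The 4 that were higher were the large-subunit ribosomal protein genes RPL13 (ratio 1.56) and RPL8 (1.51), the glycolytic enzyme gene ENO1 (1.53) and the ribosomal RNA gene RNA28S5 (1.51). For RNA28S5 the ratio was 1.28 without 1 high cell, whose share of 0.673% was far above the median of 0.141%.

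Transcripts known to stay in the nucleus were found on both sides of 1. The 17 other nuclear long non-coding RNAs in the table together took 0.0519% ± 0.0233 in high cells and 0.0442% ± 0.0172 in low cells, a ratio of 1.18. Their summed UMIs were 174 and 170, with a counting interval of 0.922 to 1.42 that includes 1. By cells, 15 of 19 high cells lay above the median of low cells and 4 below, and the ratio of medians was 1.35. Without CRNDE, the most abundant member, the ratio of mean shares was 1.32. None of the 17 reached a mean of 3 UMIs per cell, so none entered the comparison of genes. NEAT1, which builds the paraspeckles next to speckles, had 31 UMIs in high cells and 27 in low cells (0 to 6 and 0 to 3 per cell), at a ratio of 1.17. JPX had 27 and 26 UMIs (ratio 1.23) and CRNDE 32 and 40 (ratio 0.751).

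Messenger RNAs that keep some of their introns and wait in the nucleus were, as a list, slightly lower in high cells. Their sum was 0.498% ± 0.109 against 0.559% ± 0.118, a ratio of 0.891, and 15 of 19 high cells lay below the median of low cells. Of 13 members compared, 1 was higher and 2 were lower, which is near the 10.3% and 11.6% of all genes, with a median log2 ratio of -0.20 against 0.01 over all genes. SRSF11, a splicing factor gene, was higher at a ratio of 1.55 (120 against 79 UMIs). SRSF5, another splicing factor gene, was lower at 0.519 (63 against 113 UMIs). MAT2A, which makes the methyl donor S-adenosylmethionine and is held back in the nucleus when methionine is ample, was lower at 0.574 (50 against 108 UMIs).

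Genes for proteins of the speckle itself gave 0.247% ± 0.0642 and 0.249% ± 0.0873, a ratio of 0.994. Of 11 compared, 2 were higher and 1 lower, again near the 21.9% of all genes past the fold in either direction. DDX46, a helicase of the early spliceosome, was at 2.32 and U2AF1, which reads the 3′ splice site, at 1.99. RNPS1, which marks spliced messages, was at 0.610, and SON, the speckle scaffold, at 0.790. Genes of the common core of the splicing snRNPs were at 0.932, with 0 of 17 higher and 2 lower, beside 10.3% and 11.6% of all genes.

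The hnRNP list, proteins that coat nascent RNA, was at 1.24 and 18 of 19 high cells lay above the median of low cells. Its value rested on HNRNPA1, without which it was 1.06. HNRNPA1 took 0.0432% to 0.197% in high cells (median 0.153%) and 0% to 0.139% in low cells (median 0.0541%), a ratio of 2.16. HNRNPA1 has many near-identical copies in the genome, and how reads shared with them were counted is not given in the sources used here. HNRNPF (1.95) and HNRNPU (1.95) were also higher, and HNRNPR (0.594) was lower.

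Long non-coding RNAs of the cytoplasm, mostly spliced hosts of small nucleolar RNAs, were at 0.891 (0.401% ± 0.0900 against 0.450% ± 0.0888). Of 9 compared, 0 were higher and 2 were lower, SNHG1 at 0.414 and SNHG15 at 0.468, beside 10.3% and 11.6% of all genes. Grouping genes by transcript length, which GENCODE 29 gave for 89.6% of the genes compared, gave ratios of 1.01 under 1000 bases, 0.982 from 1000 to 2000, 1.05 from 2000 to 4000 and 1.05 above.

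**Figure D2:**
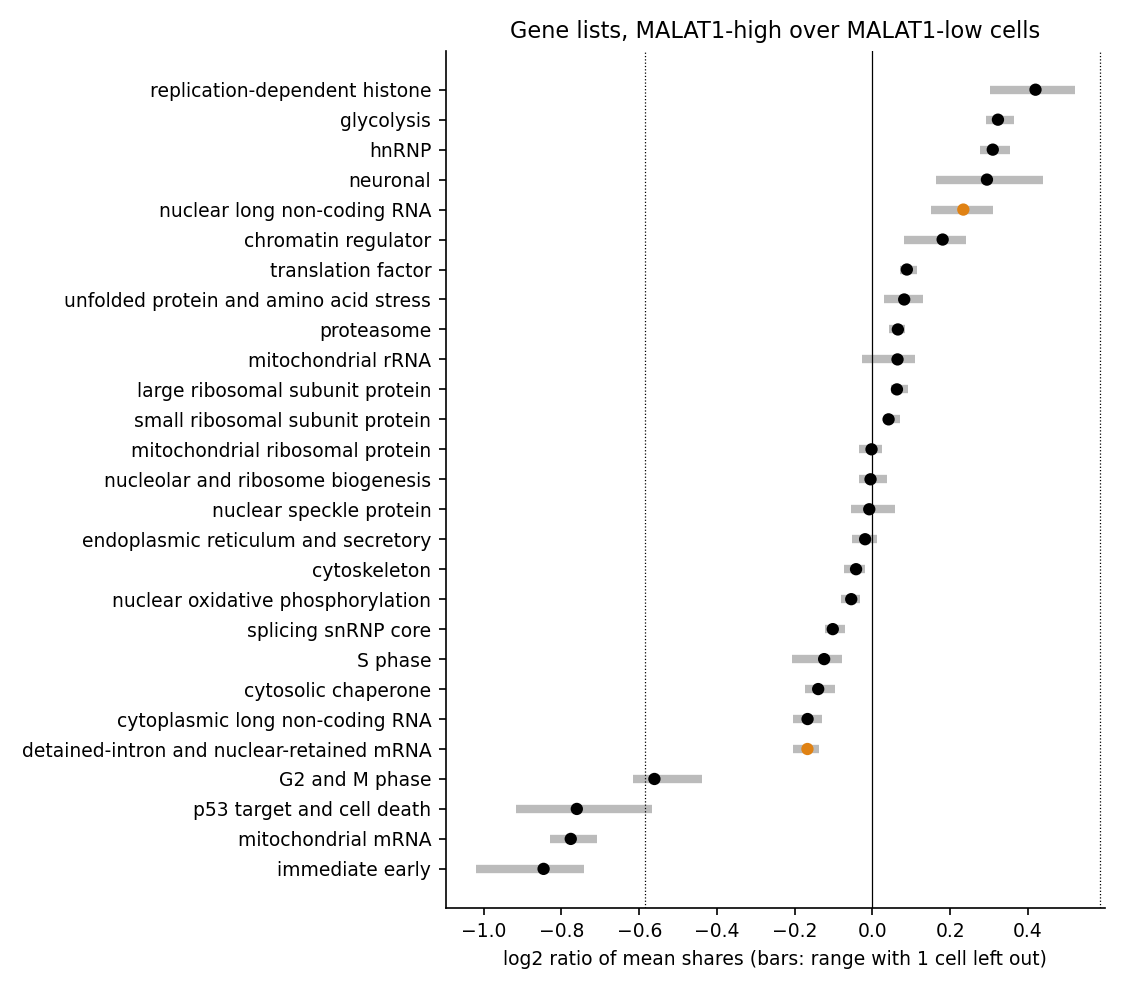
Each row is a gene list; the point is the log2 ratio of its mean summed share in MALAT1-high over MALAT1-low cells, the bar its range when 1 cell is left out, and the dotted lines mark 1.5 times. The nuclear lists (orange) lie on both sides of 0, and the 3 lists past the line are lower in high cells; the sparse kidney epithelial list, higher at 2.55, and 2 other sparse lists are not drawn.

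Of 30 gene lists, 27 held a summed mean of at least 3 UMIs per cell, a minimum set after the values had been seen. Of those 27, 0 were at least 1.5 times higher in high cells and 3 at least 1.5 times lower: mitochondrial mRNA, immediate early genes, and p53 targets with cell death genes. The minimum left out 3 sparse lists, all of them past the fold: kidney epithelial markers, higher at 2.55 (51 against 29 UMIs), and blood and immune genes at 0.615 and fibroblast and muscle genes at 0.397, on 2 UMIs each in high cells.

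Messages made inside mitochondria were lower in high cells, as a list by more than the fold. The mitochondrial genome encodes 13 proteins of the respiratory chain, 2 ribosomal RNAs and a set of tRNAs, cut from long transcripts of both strands. The mRNAs of the 13 protein genes together took 1.53% to 4.62% in high cells (median 2.43%) and 2.04% to 8.68% in low cells (median 4.42%). The groups overlapped, with 17 of 19 high cells below the median of low cells. The means were 2.79% ± 0.998 and 4.78% ± 1.71, a ratio of 0.584 that ran from 0.563 to 0.612 when 1 cell was left out.

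All 13 protein genes of the mitochondrial genome had ratios below 1, and 10 of 13 were past the fold, where 11.6% of all genes were. Their RNAs are cut from shared long transcripts, so the 13 are not separate cases. MT-CO3, a core subunit of cytochrome oxidase, was at 0.453 (0.186% against 0.410%), and 19 of 19 high cells lay below the median of low cells. MT-ND1, a membrane subunit of complex I, was at 0.517. MT-CYB, the catalytic subunit of complex III, was at 0.529. The mildest were MT-ND3 at 0.768, MT-ND2 at 0.708 and MT-ND6, the mRNA of the other strand, at 0.672.

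The 2 ribosomal RNAs of the same genome had ratios on opposite sides of 1. MT-RNR2, the large one, was at 1.33 (1.47% against 1.11%) and MT-RNR1, the small one, at 0.741 (0.768% against 1.04%), neither of them past the fold. Among tRNA genes of this genome MT-TP had the lowest ratio of all 1095 genes, 0.210: 1 to 115 UMIs (median 5) in high cells and 9 to 143 (median 57) in low cells. MT-TS2 was at 0.442 and MT-TF at 0.540. The large part of the respiratory chain that the nucleus encodes was at 0.963. Of its 41 genes compared, 3 were higher and 1 lower, beside 10.3% and 11.6% of all genes. Genes for mitochondrial ribosomal proteins were at 0.998.

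**Figure D3:**
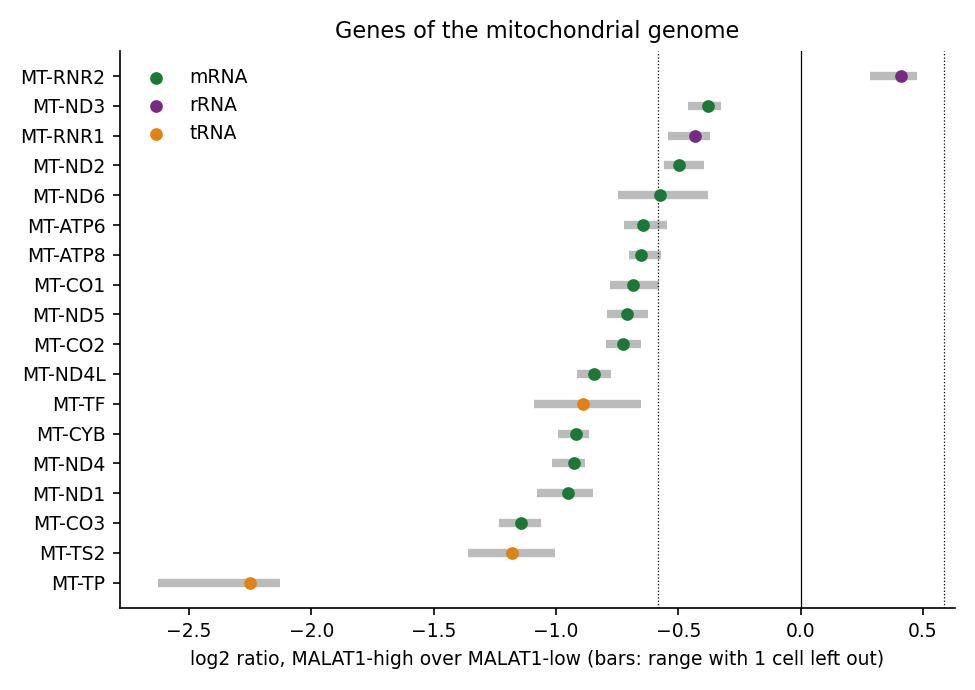
The log2 ratio of the mean share in MALAT1-high over MALAT1-low cells for each gene of the mitochondrial genome with at least 3 UMIs per cell, with bars for the range when 1 cell is left out and dotted lines at 1.5 times. Every mRNA (green) and tRNA (orange) lies left of 0 and of the rRNAs (purple) only MT-RNR2 lies right of it.

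Over all 76 cells the mitochondrial mRNA share correlated with the MALAT1 share at Pearson r = -0.376 and Spearman rho = -0.397, and at r = -0.345 without the 2 cells farthest from the median MALAT1 share. The cells share a line, a chip and a total, so this is a description. The 4 successive runs of 19 cells, from high to low MALAT1, averaged 2.79%, 3.55%, 3.22% and 4.78%. Without the 19 cells of the highest mitochondrial mRNA share, 2 of which were high and 9 low cells, the log2 ratio was -0.46 in place of -0.78. Those cells were left out by the list's own share, so a shift toward 0 was built in. Without the 19 cells of the highest G2 and M phase share the log2 ratio was -0.52. Both values are short of the 1.5-fold limit.

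Genes of G2 and mitosis were lower in high cells, as a list by less than the fold. Together the mitotic genes took 0.170% to 0.534% in high cells (median 0.309%) and 0.267% to 1.15% in low cells (median 0.408%), a ratio of 0.678. Of 12 members compared, 0 were higher and 7 lower, beside 10.3% and 11.6% of all genes, and the median log2 ratio was -0.74. UBE2C, which marks mitotic proteins for destruction, was at 0.416, with 0 to 19 UMIs in high cells (median 2) and 0 to 26 in low cells (median 9). CKS2, a partner of the mitotic kinase, was at 0.498. KPNA2, a nuclear import receptor, was at 0.544, with 18 of 19 high cells below the median of low cells. PTTG1 (securin) was at 0.558, CCNB1 (cyclin B1) at 0.563, CDK1 (the mitotic kinase) at 0.588 and BUB3, of the spindle checkpoint, at 0.612.

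Not every mitotic gene was lower: BIRC5 (survivin) was at 1.25 and SMC4, a condensin subunit, at 1.13. A single low cell reached 1.15%, and leaving out 1 cell moved the list's ratio between 0.653 and 0.737. The 4 runs of cells averaged 0.319%, 0.347%, 0.393% and 0.471%. The S phase list was at 0.917, with 1 of 13 higher and 1 lower, beside 10.3% and 11.6% of all genes. The higher one was CDC6, which loads the replicative helicase, at 2.14, and the lower one DUT, which clears dUTP, at 0.539. The replication-dependent histones were at 1.34, carried by HIST1H4C (3104 against 2476 UMIs); without it the ratio was 1.07. The share of cells in each phase was not called.

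Many G2 and M genes carry the CHR element, a short promoter sequence bound by the DREAM and MuvB complexes. RefSeq's promoter table (GRCh38.p14) was searched over 250 bases before each start, on both strands, for TTTGAA and TTTAAA, forms of the CHR, and for CACGTG, the E-box read by MYC. This search was added after the values had been seen. TTTGAA stood in 16.1% of all genes, 10.8% of the genes compared, 3 of 23 S phase genes and 57.1% of the G2 and M list (16 of 28). TTTAAA stood in 13.5% of all genes, 8.90% of the genes compared, 3 of 23 S phase genes and 35.7% of the G2 and M list, and CACGTG in 7.73%, 12.7%, 4 of 23 and 14.3%. A match is a description and not a bound site. Of the 7 lower genes, 5 had a promoter in the table: 3 of 5 held TTTGAA, 4 of 5 TTTAAA and 1 of 5 CACGTG. The windows with TTTGAA follow, with that motif or its reverse complement in capitals, on the gene's strand (plus for all 3):
KPNA2, chr17:68035609-68035668: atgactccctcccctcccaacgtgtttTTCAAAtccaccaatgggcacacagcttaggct
CDK1, chr10:60778143-60778202: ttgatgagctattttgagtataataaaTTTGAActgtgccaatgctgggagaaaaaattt
CKS2, chr9:89311135-89311194: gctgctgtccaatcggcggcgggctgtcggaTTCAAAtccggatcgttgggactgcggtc
The motif begins 99, 161 and 29 bases before the RefSeq start of the gene in that order, and CDK1 has 2 starts in the table.

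Growth-response genes were lower in high cells. The immediate early list, genes switched on within minutes by serum and stress, took 0.0724% ± 0.0587 in high cells and 0.130% ± 0.0590 in low cells, a ratio of 0.556, with 16 of 19 high cells below the median of low cells. With cells ranked by MALAT1 per spike-in UMI its log2 ratio was -0.51, which ends its place past the fold, and by medians of cells it was -1.46, against -0.85. Its 2 members compared were both lower, where 11.6% of all genes were. MYC, the growth-promoting transcription factor, had 0 to 16 UMIs in high cells (median 2) and 1 to 28 in low cells (median 6), a ratio of 0.363. FOS, a part of the AP-1 factor, was at 0.649, a call that ends when 1 cell is left out (0.478 to 0.839). Among members below 3 UMIs per cell, JUN was at 0.582, EGR1 at 0.568 and IER2 at 0.935.

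The p53 and cell death list was at 0.590, on 96 against 163 UMIs, and no member was abundant enough to be compared alone. PMAIP1, which encodes the death protein NOXA, had 45 and 72 UMIs, and GADD45B, a stress-induced gene, 8 and 35. Leaving out 1 cell moved the list between 0.530 and 0.675, and thinning gave a log2 ratio of -0.49 in place of -0.76, and both end its place past the fold. Genes of the unfolded protein and amino acid stress response were at 1.06, with PHGDH, of serine synthesis, higher at 1.80. Cytosolic chaperones were at 0.908, with 2 of 17 lower, near the 11.6% of all genes. The 2 were HSPA8 at 0.556, with 18 of 19 high cells below the median of low cells, and HSPE1 at 0.659.

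Glycolysis was higher in high cells. The list took 0.633% to 1.83% in high cells (median 1.35%) and 0.806% to 1.49% in low cells (median 1.05%), a ratio of 1.25 that stayed short of the fold. All 10 members compared had ratios above 1 and 3 were past the fold, where 10.3% of all genes were higher: PGAM1 at 1.80, PKM at 1.53 and ENO1 at 1.53. ENO1 had 0.0609% to 0.356% in high cells (median 0.206%) and 0.0556% to 0.252% in low cells (median 0.146%), and 16 of 19 high cells lay above the median of low cells. ALDOA was at 1.49 and LDHA at 1.24. The 4 runs of cells averaged 1.31%, 1.205%, 1.12% and 1.05%, and over 76 cells the list followed MALAT1 at r = 0.372 and rho = 0.422.

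**Figure D4:**
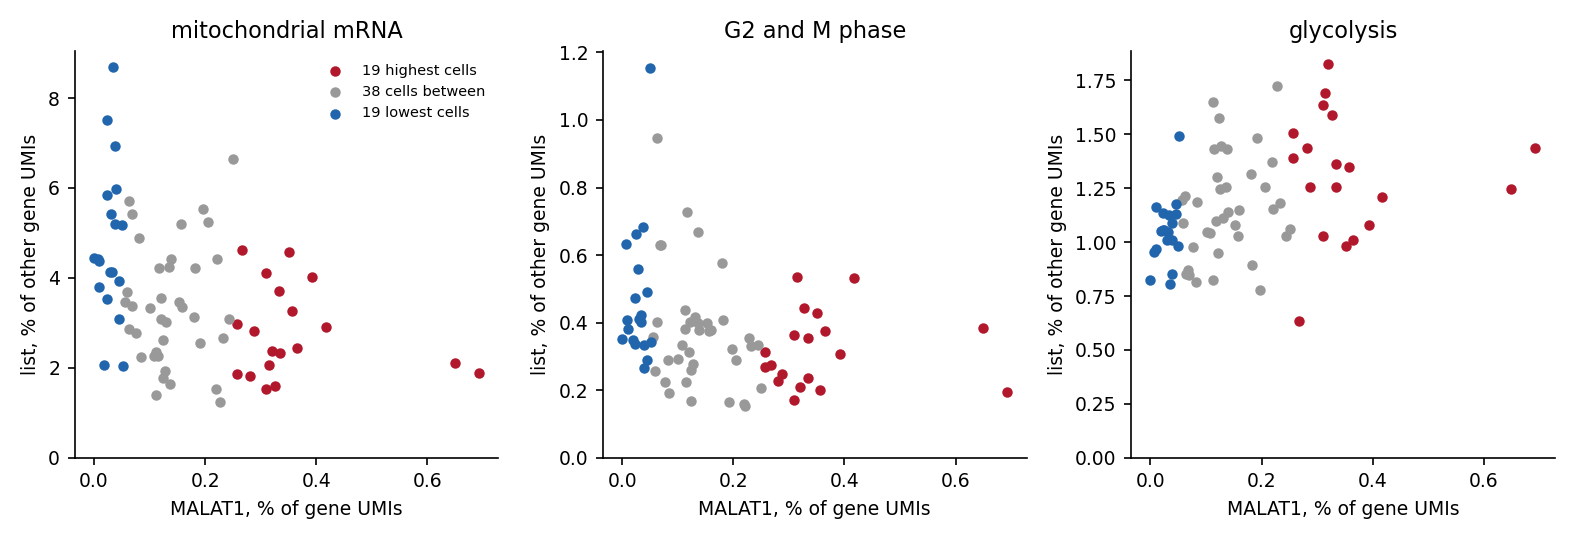
Summed share of 3 gene lists, as a percent of a cell's other gene UMIs, against the MALAT1 share in each of the 76 cells, with the 19 highest cells in red and the 19 lowest in blue. Mitochondrial mRNA (r = -0.376) and G2 and M genes (r = -0.298) lean down with MALAT1 and glycolysis (r = 0.372) leans up, with wide scatter in each.

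Summed shares of the translation machinery were close to equal, while more translation factors than genes at large were higher. Large-subunit ribosomal protein genes took 19.1% ± 2.39 of UMIs in high cells and 18.3% ± 1.65 in low cells (1.04), and small-subunit genes were at 1.03. Past the fold were 2 of 47 large-subunit genes, RPL13 and RPL8, and 1 of 31 small-subunit genes, RPS9 (1.80). All of them were higher, where 10.3% of all genes were. Translation factors were at 1.06, with 7 of 28 higher and 0 lower, beside 10.3% and 11.6% of all genes. Of those, EIF5 (2.05) and EIF2S2 (2.03) act in start site selection and EEF2 (1.68) moves the ribosome along the message. Secretory pathway genes were at 0.987 and proteasome genes at 1.05.

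The 15 genes of highest ratio were UQCRC1, LYAR, CD99, HDLBP, VTRNA1-3, RPN1, DDX46, SLC25A6, TRAP1, FAM136A, CHCHD3, FKBP2, HNRNPA1, CDC6 and GPATCH4, from 3.65 down to 2.10. UQCRC1, a core subunit of complex III made in the nucleus, had 1 to 8 UMIs in high cells (median 4) and 0 to 5 in low cells (median 1). Its shares averaged 0.0218% ± 0.0140 and 0.00599% ± 0.00477, with a counting interval of 2.01 to 5.19 on the summed UMIs. LYAR, a nucleolar factor of ribosome making, had 1 to 12 UMIs (median 4) against 0 to 5 (median 1), a ratio of 3.44. For both, 19 of 19 high cells lay above the median of low cells, although the ranges overlapped. SLC25A6, an ADP/ATP carrier of the inner mitochondrial membrane, was the most abundant of the 15 after HNRNPA1, at 12.8 ± 6.66 against 7.16 ± 5.31 UMIs per cell and a ratio of 2.26. CD99, a surface glycoprotein, was at 2.83 and RPN1, of the oligosaccharyltransferase, at 2.35.

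The 15 of lowest ratio were MT-TP, SS18L2, UBE2T, MYC, EIF4A3, ID2, SNHG1, UBE2C, ZNRD1, CTB-36O1.7, ID3, SELK, MT-TS2, MRPS36 and GPX4, from 0.210 up to 0.444. GPX4, the enzyme that repairs oxidised membrane lipids, had 0 to 29 UMIs in high cells (median 5) and 5 to 35 in low cells (median 19), and 19 of 19 high cells lay below the median of low cells. UBE2T, a ubiquitin-conjugating enzyme of DNA crosslink repair, was at 0.359. EIF4A3, the helicase of the exon junction complex, was at 0.384. ID2 and ID3, which block the DNA binding of helix-loop-helix factors, were at 0.395 and 0.427.

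**Figure D5:**
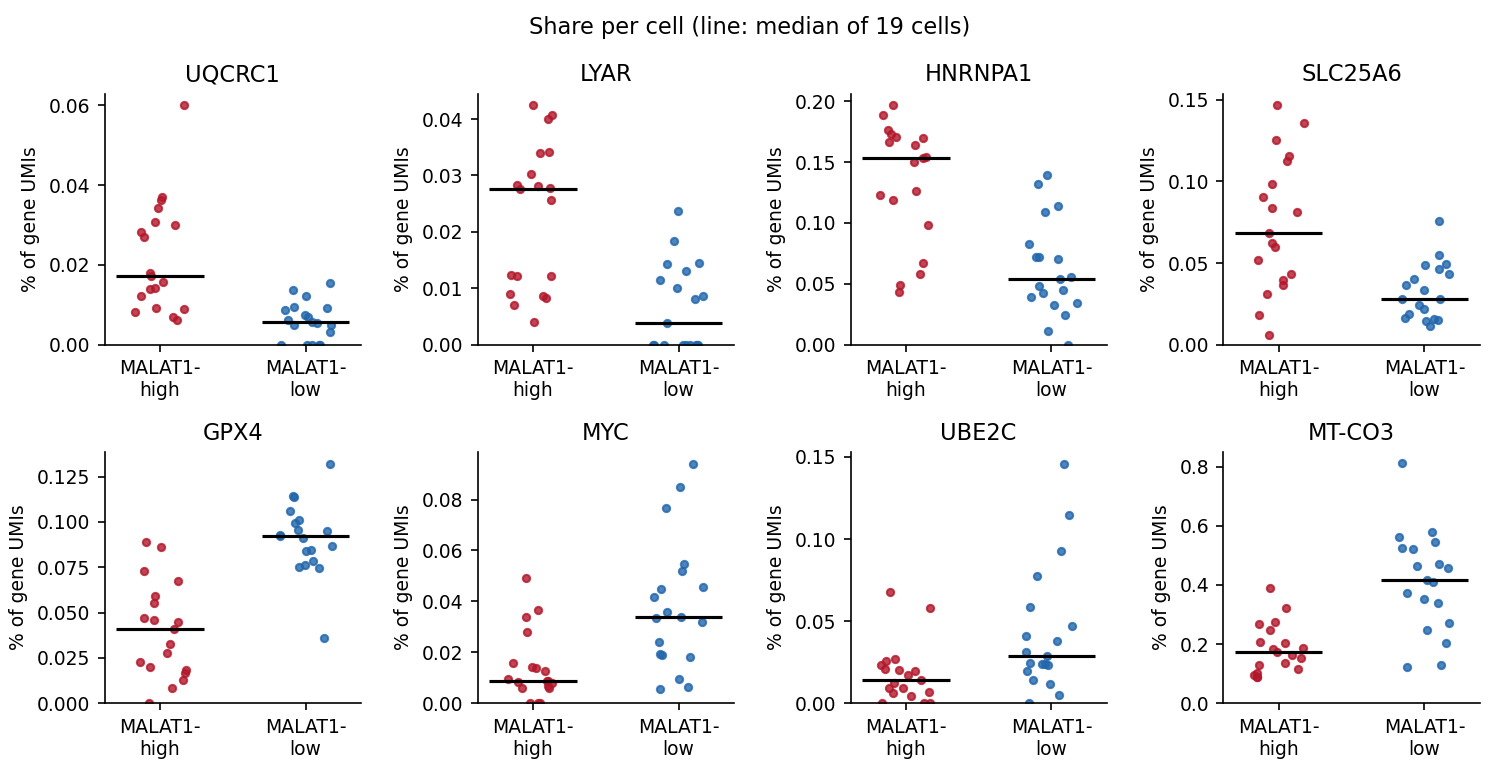
Share of 8 genes in each MALAT1-high (red) and MALAT1-low (blue) cell, in percent of gene UMIs without MALAT1, with a line at the median of 19 cells; the genes were picked after their values were seen. The upper row is higher and the lower row lower in MALAT1-high cells, and the points of the ends overlap in every panel.

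The cells were also read for genes of other cell types. Of 17 kidney epithelial markers 6 had a row in the table, with 51 UMIs in high and 29 in low cells in all and a ratio of mean shares of 2.55 (counting interval 1.22 to 3.22). KRT18, a keratin, had 40 and 21 of these, KRT8 5 and 4, and EPCAM 0 and 1. Neuronal markers, which HEK293 cells are known to express in part, gave 130 UMIs at each end. Their ratio of mean shares was 1.23, with a counting interval of 0.871 to 1.44 that includes 1. By cells, 14 of 19 high cells lay above the median of low cells and 5 below. Without UCHL1, the most abundant member, the ratio was 3.19. Of the neuronal markers UCHL1 had 53 and 100 UMIs (0.608, past the fold), NEFM 53 and 22, and NEFL 15 and 7. Blood and immune genes, 4 of 14 with a row, gave 2 and 4 UMIs, and fibroblast and muscle genes, 5 of 11 with a row, gave 2 and 7. No doublet caller was run, and the part of cell doublets in these differences was not tested.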

How the data were processed

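The data are counts of UMIs per gene for 76 single HEK293 cells, deposited by the authors as whole numbers in 1 table, not normalized. Per the submitters' processing notes, the tools were cutadapt 1.2.1 and STAR 2.4.0a and the build was hg19 (GRCh37). The sources used here do not give the UMI counter, the gene annotation, how multi-mapping reads were handled or how cells were filtered. The labels' protocols write the tag as N(4)H(4) and the column names as N6H4. A row named GENE (0.197% of all values) was dropped and 80 spike-in rows were kept apart, leaving 17513 genes and 7305 to 43392 gene UMIs per cell.

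Shares, ratios of mean shares, exact 95% counting intervals, thinning and leave-1-cell-out ranges were computed with Python 3.11.15, numpy 2.4.6, pandas 2.3.3 and scipy 1.17.1. Only the ratios of mean shares were checked on simulated data. The simulation held counting noise only and changes larger than the 1.5-fold limit, so it does not speak to calls near that limit. The genes named are MALAT1, the 15 highest and 15 lowest ratios past 1.5-fold, nuclear long non-coding RNAs with a mean of at least 1 UMI, up to 4 abundant members of each list, and others picked after their values were seen. The cells, the lists and the rule were chosen with earlier results of these data known. The intervals treat the summed UMIs of each end as plain counts and leave out the spread between cells, so they cover counting error only. Genes with near-identical copies (HNRNPA1, histones, ribosomal protein genes, GAPDH) are uncertain. Alternatives changed the scale, summary, depth, minimum, fold, ranking and number of cells.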

Additional observations from a re-analysis of the deposited data

How the results depend on the processing

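The number of genes past the fold moved by over 1.5 times with the limits of the comparison. With a minimum mean of 1 UMI it was 476 higher and 411 lower, with 10 UMIs it was 11 and 26, and with a 2-fold limit it was 25 and 30, against 113 and 127. On the spike-in scale 73 were higher, and with cells ranked by MALAT1 per spike-in UMI 84 were lower. Leaving out 1 cell gave 106 to 133 higher and 120 to 136 lower. Of the 30 genes at the ends of the order, 28 to 30 stayed past the fold under the 13 alternatives run for them, and all 30 kept their direction. These genes were chosen by their ratios in the same cells, most of which the alternatives reuse, so this result was largely built in. The lists past the fold numbered 5 by the median of the cell shares and 2 to 4 otherwise, against 3.

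The mitochondrial mRNA list had a log2 ratio of -0.78. It was -0.65 for pooled shares, -0.86 for medians of cells, -0.70 after thinning, -0.63 without shallow cells, -0.69 ranked per spike-in UMI and -0.69 ranked separately among the deeper and the shallower cells. It was -0.81 with 12 cells at each end, -0.67 with 25, and -0.82 on totals without mitochondrial genes. It was -0.52 without the 19 cells of highest G2 and M share and -0.46 without the 19 of highest mitochondrial mRNA share, alternatives added after seeing the data. The second left cells out by the list's own share, so a shift toward 0 was built in. Leaving out 1 cell gave -0.83 to -0.71.

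The G2 and M list, at -0.56, was -0.40 by medians, -0.36 ranked per spike-in UMI, -0.45 ranked separately by depth, -0.36 with 12 cells, -0.68 with 25, -0.35 without the cells of highest G2 and M share and -0.41 without those of highest mitochondrial mRNA share. Leaving out 1 cell gave -0.62 to -0.44. The detained-intron list, at -0.17, was -0.060 ranked per spike-in UMI and -0.27 with 12 cells. Gene UMIs per spike-in UMI, at a ratio of 0.947, were at 1.46 ranked per spike-in UMI, 0.974 ranked separately by depth, 0.953 with 12 cells, 0.938 with 25 and 0.963 by medians. The value of 1.46 shares its spike-in divisor with the ranking, and how much of its rise this gives was not tested. Leaving out the cells of highest G2 and M share built in a shift of that list toward 0. The causes of the other shifts were not tested.

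Over 16 alternatives each, 14 of 27 lists kept their direction and 13 did not. Nuclear long non-coding RNAs ran from -0.01 to 0.44, and speckle proteins from -0.19 to 0.20. Glycolysis ran from 0.19 to 0.40 and immediate early genes from -1.46 to -0.51. The minimum of 3 UMIs for lists was set after the blood and immune list, with 6 UMIs in all at both ends, had been seen to change direction under 4 of 13 alternatives. The other lists it left out, kidney epithelial (log2 ratio 1.35, the 1 list past the fold upward) and fibroblast and muscle (-1.33), kept theirs. No paired analysis was possible because the cells form 1 group and carry no replicate numbers shared between groups. Genes of 3 to 5 UMIs per cell are limited by depth.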

Other observations

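A few sets of genes were put together after members of them had been seen at the ends of the order, so their values are descriptions of these cells only. The first is the selenoproteins, enzymes and membrane proteins that carry the amino acid selenocysteine, read from a UGA codon. All 21 with a row in the table took 0.0243% to 0.311% of gene UMIs in MALAT1-high cells (median 0.116%) and 0.190% to 0.342% in MALAT1-low cells (median 0.242%), and 18 of 19 high cells lay below the median of low cells. The ratio of the means was 0.516 (481 against 986 UMIs, counting interval 0.489 to 0.610), and the 4 runs of 19 cells, from high to low MALAT1, averaged 0.127%, 0.176%, 0.209% and 0.247%. Of 3 members with a mean of at least 3 UMIs, GPX4 and SELK were lower, where 11.6% of all genes were, and GPX1 was at 0.953. GPX4 and SELK stand among the 15 genes of lowest ratio, seen before the set was made, so that count was built in. Less abundant members included SEPHS2, which supplies the selenium donor, at 0.385 (28 against 76 UMIs), SELT at 0.340 (19 against 59), SEPW1 at 0.318 (18 against 50) and SEP15 at 0.482 (31 against 76). Not all were low: VIMP was at 1.02 and TXNRD1 at 0.790. Over the alternatives the log2 ratio ran from -1.07 to -0.74.

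The second set is 14 short non-coding RNAs made by RNA polymerase III. Together they took 0.0173% to 0.190% in high cells (median 0.0610%) and 0% to 0.0693% in low cells (median 0.0288%), with 18 of 19 high cells above the median of low cells. The ratio of the means was 2.67 (266 against 124 UMIs, counting interval 1.93 to 3.00), and the 4 runs of cells averaged 0.0828%, 0.0619%, 0.0471% and 0.0310%. VTRNA1-3, a vault RNA, gave 112 and 55 UMIs. RN7SL1 and RN7SL2, the RNA of the signal recognition particle in the cytoplasm, gave 37 and 15, and 43 and 21. The nuclear RN7SK, which restrains transcription elongation, gave 20 and 12, and BCYRN1, a brain cytoplasmic RNA, 15 and 6. These RNAs have no ordinary poly(A) tail and many near-copies in the genome, and how oligo-dT priming reached them was not tested. Over the alternatives the log2 ratio ran from 1.08 to 1.64.

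The third set is the ID genes. ID2 and ID3 were lower in high cells, and the less abundant ID1 (9 against 21 UMIs) and ID4 (2 against 10) gave fewer UMIs there too. The 4 together were at a ratio of 0.400, with 17 of 19 high cells below the median of low cells and a log2 ratio from -1.55 to -0.88 over the alternatives.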
